A study of Rattus norvegicus with 54 samples.

Results

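miR-146a and miR-146b are a pair of paralogous microRNAs, short RNAs that bind messenger RNAs through a seed near their 5′ end and lower the output of those messengers. They were taken by name, as the rows of the miRNA count table that begin with rno-miR-146a- or rno-miR-146b-. This gave 4 of the 832 rows, rno-miR-146b-5p, rno-miR-146b-3p, rno-miR-146a-5p and rno-miR-146a-3p, where 5p and 3p are the arms of the hairpin from which a mature miRNA can be cut. The table held 54 libraries in 18 groups of 3, from kidney, liver, plasma and urine of male Sprague-Dawley rats aged 9 weeks with no genetic modification named. Cisplatin, a platinum chemotherapy drug toxic to the kidney, was given once by vein at 5 mg/kg and compared at 72 h with 0.9% sterile saline in kidney, plasma and urine. APAP (acetaminophen) at 1250 mg/kg was compared with 0.5% methylcellulose, and CCl4 (carbon tetrachloride) at 1500 mg/kg with corn oil, each given once by mouth and sampled at 24 h in liver, plasma and urine; both are liver toxicants. The GEO labels of the cisplatin urine libraries give a dose of 1500 mg/kg in place of the 5 mg/kg of the study's methods. Each library came from 1 of 3 animals of its treatment, and treated and vehicle rats were different animals.

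In human monocytes, where the family was first studied, transcription of miR-146a depends on NF-kB, the transcription factor switched on by Toll-like and interleukin-1 receptors. Both 5p arms are known to target IRAK1 and TRAF6, proteins that carry the signal of those receptors, so the family is regarded as a brake on inflammatory signalling. The 2 genes lie on different chromosomes and are transcribed separately, which allows the paralogs to be compared with each other in every sample. In bulk tissue, more cells that express a miRNA and more of it per cell cannot be told apart.

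The mature sequences are shown because the paralogs share their seed and differ only near the 3′ end, which sets how well their reads can be separated. Capitals mark the seed, bases 2 to 8 from the 5′ end, and the sequences are those of RefSeq on the rat assembly GRCr8.
miR-146b-5p: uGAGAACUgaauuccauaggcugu
miR-146a-5p: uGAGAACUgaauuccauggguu
miR-146b-3p: cCUAGGGAcucaguucuggug
miR-146a-3p: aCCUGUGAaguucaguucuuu

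The 5p arms were identical at 20 of the 22 positions compared. The substitutions from miR-146a-5p to miR-146b-5p, counted from 1 at the 5′ end, were G18A and U21C, and miR-146b-5p was 2 bases longer. The shared seed GAGAACU was in no other of the 688 table miRNAs with a RefSeq sequence, of 753 distinct miRNAs in the table. The 3p arms were identical at 6 of 21 positions and had different seeds.

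The hairpins are shown because both arms of each were counted, with the mature arms in capitals.
Mir146b stem-loop: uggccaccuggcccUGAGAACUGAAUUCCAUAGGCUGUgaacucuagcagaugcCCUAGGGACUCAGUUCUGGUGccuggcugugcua
Mir146a stem-loop: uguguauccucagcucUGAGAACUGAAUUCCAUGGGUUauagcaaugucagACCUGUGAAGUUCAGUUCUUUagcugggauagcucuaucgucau

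In the RefSeq annotation of GRCr8, Mir146b lay on the plus strand of chromosome 1, overlapping the protein-coding gene C1h10orf95, between Cuedc2 and Mfsd13a. Mir146a lay on the minus strand of chromosome 10, overlapping the lncRNA LOC134480673, with Pttg1 as the next gene on its right. Coordinates are not given because the reads had been aligned to another assembly, Rnor_5.0.

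The authors' alignment allowed 2 mismatches, which is also the number of substitutions between the 5p arms, so some reads of one could in principle have been counted for the other. The counts set a limit on this. In corn oil liver 2, 78 reads were counted for miR-146b-5p against 486 for miR-146a-5p, so in that library at most 16.0 reads per 100 of miR-146a-5p could have been counted as miR-146b-5p. In the other direction, cisplatin plasma 2 had 233 reads of miR-146a-5p against 511 of miR-146b-5p, or 45.6 per 100. How many reads were in fact shared was not tested.

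Total miRNA reads per library ran from 372997 to 3591541 in kidney, 273410 to 2213358 in liver, 21627 to 1290244 in plasma and 377 to 58151 in urine. All 36 pairs of replicate libraries of kidney, liver and plasma differed by more than sampling noise. Hepatocyte markers (miR-122 and miR-802, both arms) summed to between 19773 and 26889 CPM (a miRNA's share of its library's miRNA reads, scaled to 1000000 reads) in liver and to between 13.4 and 49.5 CPM in kidney, so every liver was far above every kidney. Across the 54 libraries miR-146a-5p had 24957 reads in 38 libraries and miR-146b-5p had 19892 reads in 43, whereas miR-146a-3p had 78 reads in 20 libraries and miR-146b-3p had 12 reads in 9. Both 5p arms were found in every kidney, liver and plasma library.

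In vehicle rats the order of the paralogs depended on the kind of sample: miR-146b-5p was the more abundant in most plasma libraries, and miR-146a-5p in all liver and kidney libraries. In the 9 plasma libraries miR-146b-5p had a lowest, median and highest level of 601, 1188 and 2093 CPM, and miR-146a-5p of 553, 701 and 1240 CPM. In the 6 livers miR-146b-5p had 171, 209 and 266 CPM, and miR-146a-5p had 963, 1065 and 1204 CPM. In the 3 kidneys miR-146b-5p had 167, 145 and 157 CPM, and miR-146a-5p had 670, 508 and 923 CPM. By mean CPM, miR-146b-5p ranked 61st of 464 miRNAs with reads in plasma, 93rd of 465 in liver and 109th of 537 in kidney, and miR-146a-5p ranked 73rd, 45th and 56th in the same order of sample types.

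**Figure D1:**
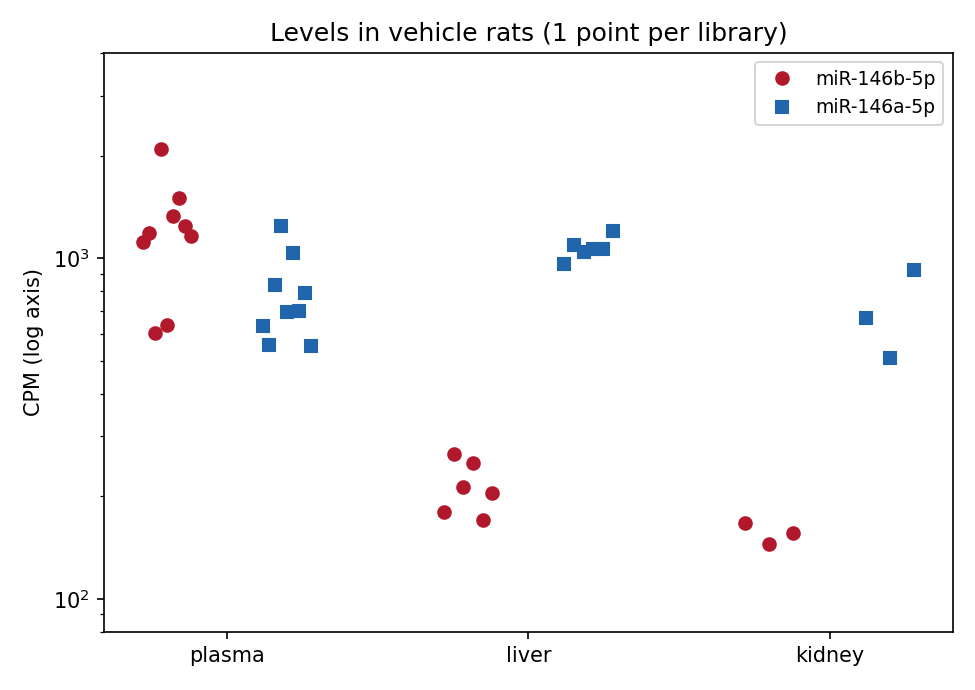
Levels of miR-146b-5p (circles) and miR-146a-5p (squares) in vehicle rats, in CPM on a log axis, with 1 point per library (9 plasma, 6 liver, 3 kidney). miR-146b-5p lay between 601 and 2093 CPM in plasma and at or below 266 CPM in liver and kidney, while the ranges of miR-146a-5p in plasma and kidney overlapped.

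The levels were compared between sample types with edgeR's quasi-likelihood test on TMM-scaled counts (scaled by the trimmed mean of M-values), with Benjamini-Hochberg adjustment over all miRNAs tested. Plasma and tissue libraries of a treatment may come from the same rats, which the labels do not link, so they were treated as independent in every comparison of sample types. Between plasma and liver of the methylcellulose and corn oil rats (6 libraries each), miR-146b-5p was higher in plasma by 1.93 on the log2 scale (SE 0.30, adjusted p = 2.43e-05) and miR-146a-5p lower in plasma, at -0.93 (SE 0.22, adjusted p = 0.00111). Both members tested were called there, against 75.5% of all miRNAs tested, so a call between these sample types is common. Between plasma and kidney of the saline rats (3 libraries each) the differences were 2.41 for miR-146b-5p (SE 0.20, adjusted p = 1.01e-07) and -0.66 for miR-146a-5p (SE 0.21, adjusted p = 0.0116), with 84.9% of all miRNAs called. On total read counts instead of TMM, miR-146a-5p was at -0.36 against liver (adjusted p = 0.131) and at -0.04 against kidney (adjusted p = 0.879), so its lower level in plasma depended on the scaling.

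Liver was higher than kidney for both paralogs in vehicle rats, by 0.58 for miR-146b-5p (SE 0.15, adjusted p = 0.000991) and 0.75 for miR-146a-5p (SE 0.15, adjusted p = 8.26e-05), where 79.3% of all miRNAs were called. The vehicles did not separate the paralogs: corn oil against methylcellulose gave -0.04 and 0.14 in liver, and 0.53 and 0.68 in plasma, for miR-146b-5p and miR-146a-5p in that order, with adjusted p between 0.893 and 0.982. By edgeR 0 miRNAs were called between the vehicles in liver (12 at an unadjusted p under 0.05) or in plasma (0), and 0 by DESeq2. Sample type cannot be told apart from the number after the letter L in the headers of the count columns, which was 4 for every kidney, 5 for the vehicle livers and other numbers for plasma.

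The ratio of the paralogs within a library needs no scaling between libraries. It was taken as reads of miR-146b-5p per read of miR-146a-5p, tested on the log2 scale with 0.5 reads added to each count. In vehicle rats the ratio had a geometric mean 7.57-fold higher in plasma than in liver (9 and 6 libraries, two-sided exact permutation test p = 0.0002, the smallest these groups allow, adjusted over 3 comparisons p = 0.0006) and 6.53-fold higher in plasma than in kidney (9 and 3 libraries, exact p = 0.00455, also the smallest possible, adjusted p = 0.00682). No plasma library had a ratio as low as any liver or kidney. Liver and kidney differed by -0.21 on the log2 scale (6 and 3 libraries, exact permutation p = 0.310). The plasma libraries pooled saline rats (72 h, by vein) with methylcellulose and corn oil rats (24 h, by mouth). The kidneys were all of saline rats, and the livers all of the oral vehicles. In plasma the mean log2 ratio was 0.94 with saline, 0.49 with methylcellulose and 0.33 with corn oil.

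In kidney, cisplatin rats had about 1.93 times the miR-146b-5p of saline rats, while miR-146a-5p did not pass the test. The cisplatin kidneys had 262, 321 and 305 TMM-scaled CPM of miR-146b-5p, against 158, 144 and 163 in the saline kidneys. Every cisplatin kidney lay above every saline kidney, and 14.5% of all miRNAs tested had groups that did not overlap. The difference was 0.95 on the log2 scale (SE 0.14, 95% interval 0.65 to 1.25, edgeR adjusted p = 0.00346), and miR-146b-5p was 3rd of 344 miRNAs by p-value.

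For miR-146a-5p the cisplatin kidneys had 566, 633 and 652 TMM-scaled CPM, against 636, 507 and 959 in the saline kidneys. The groups overlapped, and saline kidney 3 was the highest of the 6. The difference was -0.16 (SE 0.21, 95% interval -0.62 to 0.29, adjusted p = 0.863). Without saline kidney 3 it was 0.12, so even its sign rested on that library. Thus 1 of the 2 members tested was called in kidney, against 1.74% of all miRNAs tested (6 miRNAs, or 10 with the replicate number as a block).

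In liver 24 h after APAP, miR-146b-5p was 2.61 times the level of the methylcellulose livers, and miR-146a-5p did not pass the test. miR-146b-5p had 728, 580 and 444 TMM-scaled CPM in the APAP livers, against 176, 271 and 217 in the methylcellulose livers. The lowest APAP liver was above the highest methylcellulose liver, and here too 14.5% of all miRNAs had groups that did not overlap. The difference was 1.38 (SE 0.19, 95% interval 1.00 to 1.77, adjusted p = 3.27e-07), 2nd of 249 miRNAs by p-value.

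miR-146a-5p had 1259, 690 and 799 TMM-scaled CPM in the APAP livers, against 941, 1117 and 1061 in the methylcellulose livers. APAP liver 1 was the highest of the 6 and the other APAP livers were the lowest. The difference was -0.20 (SE 0.18, 95% interval -0.55 to 0.16, adjusted p = 0.742). In this comparison 3.21% of all miRNAs tested were called (8 of 249), and 1 of the 2 members tested.

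CCl4 went with the widest gap: miR-146b-5p was 6.34 times as high in CCl4 livers as in corn oil livers, which brought it level with miR-146a-5p. The CCl4 livers had 1513, 1654 and 1003 TMM-scaled CPM of miR-146b-5p, against 250, 191 and 216 in the corn oil livers. CCl4 liver 3 was the lowest of its group and still far above the highest corn oil liver. The difference was 2.66 (SE 0.19, 95% interval 2.27 to 3.06, adjusted p = 1.58e-08), the smallest p-value of 254 miRNAs.

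miR-146a-5p had 1312, 1331 and 1458 TMM-scaled CPM in the CCl4 livers, against 1060, 1191 and 1275 in the corn oil livers. These groups did not overlap either, as was true of 24.8% of all miRNAs tested. The difference was small, at 0.22 (SE 0.12, 95% interval -0.04 to 0.48, adjusted p = 0.308), and was not called. Again 1 of the 2 members tested was called, against 2.76% of all miRNAs. The header number was 6 for CCl4 livers 2 and 3 and 5 for the other livers, and CCl4 liver 1, which shared the number of the corn oil livers, had 1513 TMM-scaled CPM of miR-146b-5p; with that number as a term, an alternative added after the data were seen, the difference was 2.79 (adjusted p = 0.000695).

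**Figure D2:**
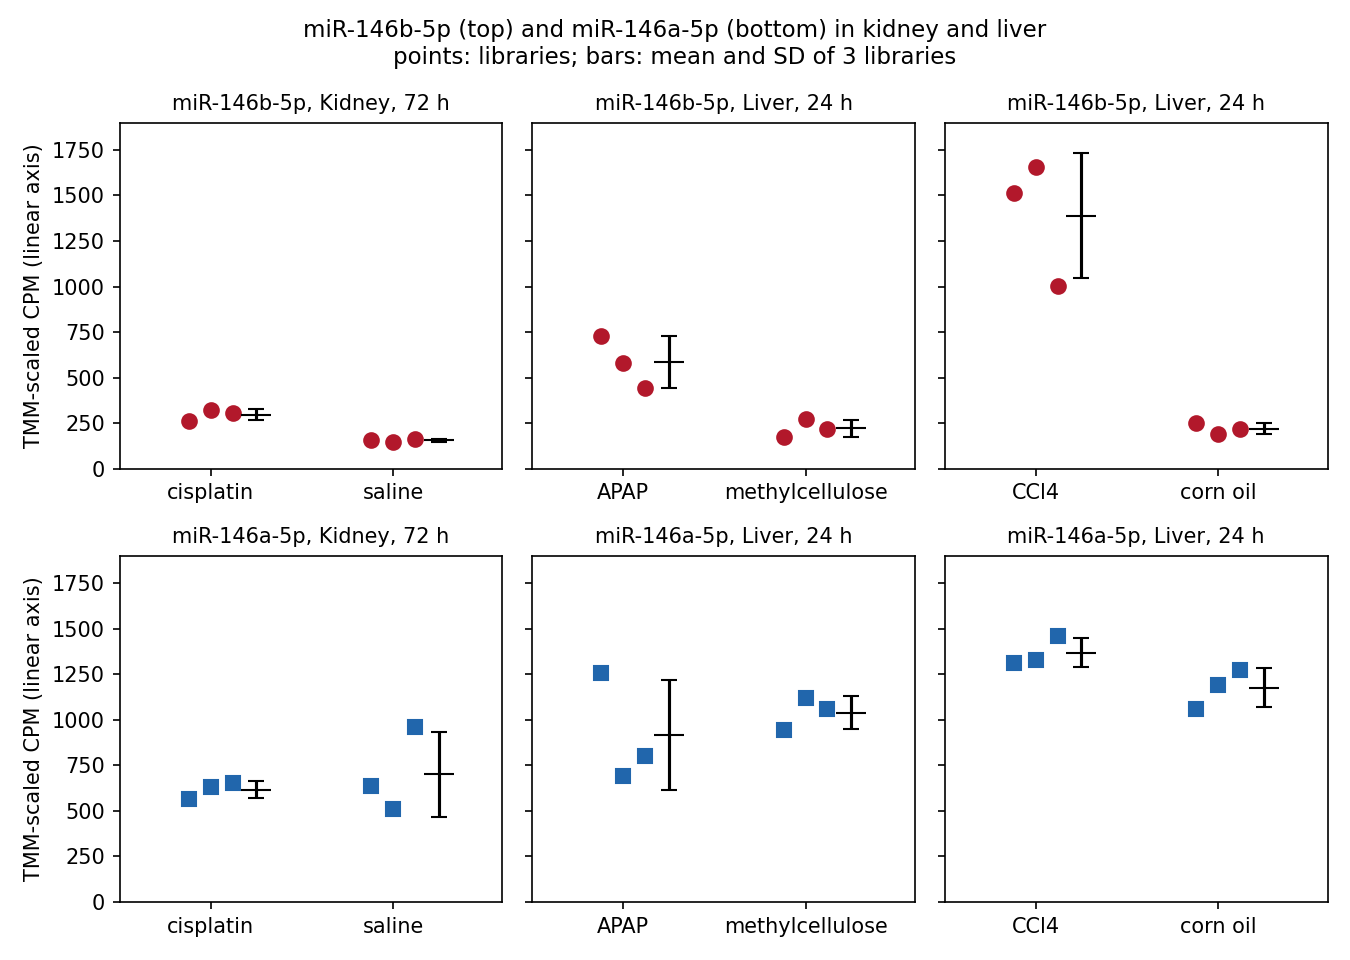
TMM-scaled CPM (linear axis) of miR-146b-5p in the top row and miR-146a-5p in the bottom row, in kidney at 72 h and liver at 24 h; points are libraries and the bars give the mean and SD of 3. miR-146b-5p averaged 296 ± 30.5 in cisplatin and 155 ± 9.51 in saline kidneys, 584 ± 142 in APAP and 221 ± 47.9 in methylcellulose livers, and 1390 ± 342 in CCl4 and 219 ± 29.5 in corn oil livers.

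Whether the CCl4 and APAP differences in liver were unequal was tested in 1 model of the 4 liver groups. The CCl4 difference of miR-146b-5p exceeded the APAP difference by 1.29 on the log2 scale (SE 0.30, 95% interval 0.67 to 1.92, unadjusted p = 0.000311). After adjustment over 262 miRNAs this did not pass 0.05 in edgeR (adjusted p = 0.0815), although it had the smallest p-value of all. By edgeR 0 miRNAs were called (14 at an unadjusted p under 0.05), and DESeq2 called 1, miR-146b-5p, at 1.35 (adjusted p = 0.0408). The call also passed when CCl4 liver 3 (1.55, adjusted p = 0.00195), APAP liver 1 (1.51, adjusted p = 0.0406), APAP liver 2 (1.37, adjusted p = 0.0436) or methylcellulose liver 1 (1.46, adjusted p = 0.0278) was left out. In 12 of the 19 alternatives run it did not pass, and with 1 library left out the edgeR adjusted p reached 0.413. For miR-146a-5p the CCl4 difference exceeded the APAP difference by 0.42 (SE 0.25, adjusted p = 0.702). The rats given APAP and CCl4 differed in vehicle as well as in drug.

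Because the paralogs were read in the same libraries, their ratio tests directly whether they moved unequally. The cisplatin kidneys had 0.463, 0.508 and 0.468 reads of miR-146b-5p per read of miR-146a-5p, against 0.249, 0.285 and 0.170 in the saline kidneys. The APAP livers had 0.579, 0.840 and 0.555, against 0.187, 0.243 and 0.204 in the methylcellulose livers. The CCl4 livers had 1.15, 1.24 and 0.688, against 0.236, 0.160 and 0.169 in the corn oil livers. In all 3 comparisons every treated library was above every vehicle library.

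The geometric mean ratio was 2.09-fold higher in cisplatin kidneys, 3.07-fold higher in APAP livers and 5.34-fold higher in CCl4 livers than in their vehicles. Each had a two-sided exact permutation p of 0.1 (adjusted over 6 comparisons, 0.2), the smallest that 3 against 3 libraries allow, so no single comparison could pass 0.05. The libraries were then permuted within the 3 comparisons together, with the kidney libraries exchanged freely. The mean difference of 1.70 on the log2 scale (3.25-fold) had an exact p of 0.00025, the smallest of the 8000 arrangements. Same-numbered kidney libraries deviated together (correlations 0.26 to 0.38), which this p and the kidney p of 0.1 left out of account. With the kidney libraries exchanged only within same-numbered pairs, added after the data were seen, the exact p was 0.000625 together (the smallest of 3200 arrangements) and 0.25 in kidney alone (the smallest of 8). Only in 2 of the CCl4 livers did the reads of miR-146b-5p outnumber those of miR-146a-5p in solid tissue.

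**Figure D3:**
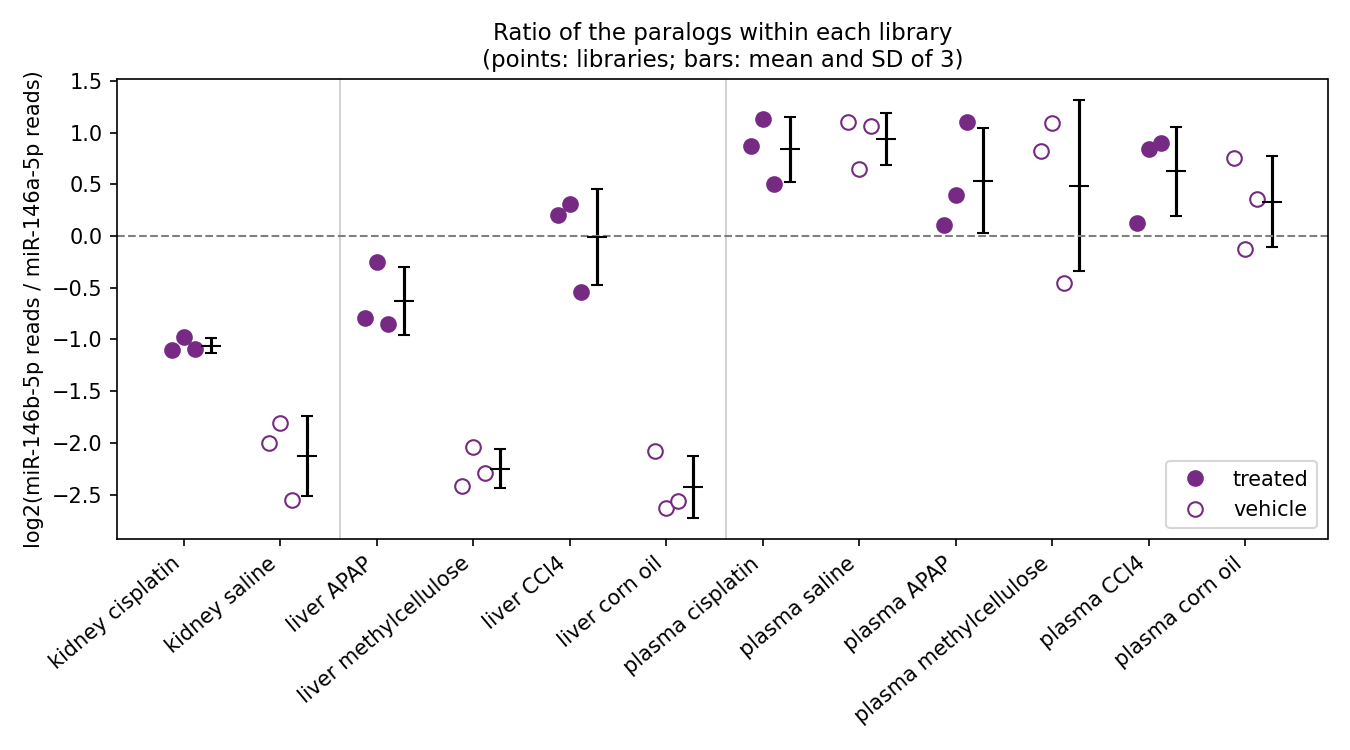
log2 of the ratio of miR-146b-5p to miR-146a-5p reads in each kidney, liver and plasma library; filled points are treated and open points vehicle libraries, bars give the mean and SD of 3, and the dashed line marks equal reads. Treated kidneys and livers lay between -1.11 and 0.31, all above their vehicles at -2.63 to -1.81, and treated and vehicle plasma overlapped.

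In plasma neither paralog passed the test after any treatment. miR-146b-5p had 1486, 1193 and 927 TMM-scaled CPM in cisplatin plasma, against 1348, 1135 and 1172 in saline plasma, a difference of -0.02 (SE 0.26, 95% interval -0.57 to 0.53, edgeR adjusted p = 0.989). miR-146a-5p had 811, 544 and 652 in cisplatin plasma, against 629, 724 and 559 in saline plasma, a difference of 0.07 (SE 0.27, 95% interval -0.50 to 0.64, adjusted p = 0.955). Both pairs of groups overlapped, in a comparison where 4.05% of all miRNAs were called.

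After APAP, miR-146b-5p had 486, 554 and 832 TMM-scaled CPM in plasma, against 742, 729 and 425 in methylcellulose plasma, a difference of -0.04 (SE 0.45, 95% interval -1.04 to 0.95, adjusted p = 0.961). miR-146a-5p had 450, 420 and 388 in APAP plasma, against 420, 340 and 589 in methylcellulose plasma, a difference of -0.06 (SE 0.44, 95% interval -1.03 to 0.90, adjusted p = 0.959). Both groups overlapped again, although 26.9% of all miRNAs were called here. Methylcellulose plasma 3 was shallow, with 21627 reads in all, 13 of them miR-146b-5p and 18 miR-146a-5p. In APAP plasma 1, 37.4% of the reads were of a single miRNA, miR-22-3p.

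The APAP plasma values depended on the scaling. On total read counts the differences were -1.06 for miR-146b-5p (adjusted p = 0.156) and -1.15 for miR-146a-5p (adjusted p = 0.0962), while the median over all miRNAs tested was at -0.92, against 0.21 with TMM. The paralogs thus lay somewhat below the median of all miRNAs with either scaling, without passing the test. Without APAP plasma 1 and methylcellulose plasma 3, an alternative added after the data were seen, TMM gave -0.30 (adjusted p = 0.333) and -0.09 (adjusted p = 0.792).

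After CCl4, miR-146b-5p had 798, 1411 and 1065 TMM-scaled CPM in plasma, against 1824, 661 and 1258 in corn oil plasma, a difference of -0.20 (SE 0.52, 95% interval -1.36 to 0.96, adjusted p = 0.935). miR-146a-5p had 730, 785 and 572 in CCl4 plasma, against 1080, 720 and 983 in corn oil plasma, a difference of -0.42 (SE 0.45, 95% interval -1.42 to 0.58, adjusted p = 0.859). Both pairs of groups overlapped, and the highest and lowest values of miR-146b-5p were both in corn oil plasma. In this comparison 0.433% of all miRNAs were called. The upper bounds of the plasma intervals of miR-146b-5p, 0.53 after cisplatin, 0.95 after APAP and 0.96 after CCl4, were below its fitted differences in kidney (0.95) and in liver (1.38 and 2.66) under the same treatments. The CCl4 difference minus the APAP difference in plasma was -0.21 for miR-146b-5p (SE 0.66, edgeR adjusted p = 0.899) and -0.43 for miR-146a-5p (SE 0.57, adjusted p = 0.775). No miRNA was called by edgeR in that contrast (0 of 255, with 35 at an unadjusted p under 0.05 and 8 called by DESeq2).

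The plasma ratio of the paralogs differed between treated and vehicle rats by -0.10 on the log2 scale for cisplatin, 0.05 for APAP and 0.29 for CCl4 (exact permutation p = 0.7, 0.9 and 0.5, 3 libraries a group). Treated and vehicle groups overlapped in each.

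**Figure D4:**
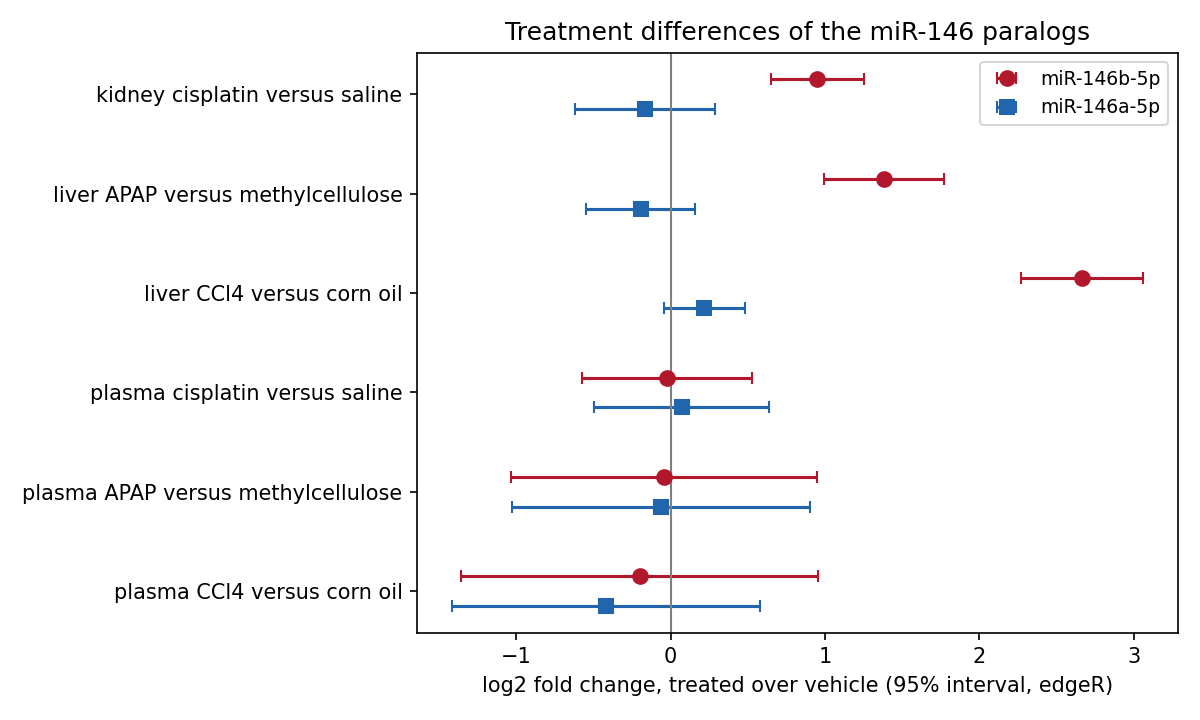
log2 fold change of treated over vehicle for miR-146b-5p (circles) and miR-146a-5p (squares) in 6 comparisons, with 95% intervals from edgeR. The intervals of miR-146b-5p lay above 0 in kidney (0.65 to 1.25) and in liver after APAP (1.00 to 1.77) and CCl4 (2.27 to 3.06), and all other intervals included 0.

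The 3p arms were rare. Pooled over libraries, miR-146a-3p made up 0.389% of miR-146a reads in liver (47 of 12099, 95% Wilson interval 0.292% to 0.516%), 0.374% in kidney (29 of 7759, 0.260% to 0.536%) and 0.0387% in plasma (2 of 5173, 0.0106% to 0.141%). miR-146b-3p made up 0.0585% of miR-146b reads in liver (5 of 8549, 0.0250% to 0.137%), 0.0739% in kidney (2 of 2707, 0.0203% to 0.269%) and 0.0580% in plasma (5 of 8626, 0.0248% to 0.136%). These intervals cover counting error only. In liver the interval of miR-146a lay above that of miR-146b.

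Both 3p arms were below the filter on low counts in every comparison and were not tested there. miR-146a-3p had 4, 10 and 18 reads (6.62, 4.83 and 8.13 CPM) in the CCl4 livers, against 1, 1 and 3 reads (2.44, 2.19 and 4.37 CPM) in the corn oil livers. In the APAP livers it had 1, 1 and 4 reads, against 2, 1 and 1 in the methylcellulose livers, and in the cisplatin kidneys 1, 7 and 3, against 5, 12 and 1 in the saline kidneys. miR-146b-3p never had more than 3 reads in a library, so its ratio to the 5p arm could not be followed: the exact permutation p was 0.5 in kidney, 0.7 after APAP and 0.1 after CCl4 (3 libraries a group, adjusted p 0.7, 0.7 and 0.3), and all 3 corn oil livers were at 0.

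In urine the members could not be compared at this depth. miR-146b-5p had 22 reads in 7 of 18 libraries, and 14 of these were in cisplatin urine 1, the deepest urine library with 58151 reads, where they made 241 CPM. The other cisplatin urines had 0 and 1 reads, against 0, 0 and 1 in saline urine. miR-146a-5p had 4 urine reads, 3 of them in cisplatin urine 1, and the 3p arms had 0. A count of 0 allows up to 3 reads, which is between 51.6 and 7958 CPM across these libraries. Without the filter, edgeR gave 0.38 for miR-146b-5p (SE 1.88, 95% interval -3.31 to 4.07, adjusted p = 0.883) and 2.29 for miR-146a-5p (SE 3.36, adjusted p = 0.753) in cisplatin against saline urine. Methylcellulose urines 1 and 2, with 625 and 950 reads, did not differ detectably beyond sampling noise (chi-square p = 0.307), and urine groups with them were not compared here.

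Other miRNAs known to respond to inflammatory signals were read from a list of 12. In kidney 8 passed the filter and 1 was called higher with cisplatin, miR-21-5p, which is induced in many injured tissues, at 0.68 (SE 0.11, adjusted p = 0.0104). That call was lost without cisplatin kidney 1 (0.69, adjusted p = 0.0828), saline kidney 1 (0.62, adjusted p = 0.133) or saline kidney 2 (0.66, adjusted p = 0.0734). With the replicate block miR-21-5p was at 0.67 (edgeR adjusted p = 0.000872). The median of the 8 was 0.41, against 0.05 for all miRNAs tested. In liver 5 were tested. After APAP 2 were called higher, miR-155-5p, a product of the BIC transcript of activated immune cells, at 2.39 (SE 0.31, adjusted p = 7.91e-08) and miR-21-3p at 1.28 (SE 0.20, adjusted p = 3.37e-06, but 0.0713 with the replicate block), with a median of 0.45 against 0.01. After CCl4 1 was called higher, miR-155-5p at 2.06 (SE 0.27, adjusted p = 6.45e-05), with a median of 0.09 against -0.07. Beside miR-155-5p, miR-146b-5p had the smaller difference after APAP and the larger after CCl4; this contrast was not tested. In plasma 1 of 4 was called higher after APAP, miR-21-5p at 1.73 (SE 0.49, adjusted p = 0.0225), in a comparison where 26.9% of all miRNAs were called. Without methylcellulose plasma 2 or 3 it was at 1.42 (adjusted p = 0.0675) or 1.01 (adjusted p = 0.112). All 4 were positive after APAP, and all 4 had an unadjusted edgeR p under 0.05 (92 of all 227 miRNAs tested). DESeq2 called 3 of the 4 (68 of all miRNAs tested). With TMM the median of the 4 was above that of all miRNAs tested, 0.21. By edgeR 0 of 4 were called after cisplatin and 0 of 5 after CCl4. In each, 0 had an unadjusted p under 0.05 and DESeq2 called 0. After cisplatin 1 of the 4 was positive, with a median of -0.02 against -0.03 for all miRNAs tested. After CCl4 4 of the 5 were positive, with a median of 0.83 against 0.04.

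Markers of white blood cells were read beside these differences, since the miR-146 family is expressed in leukocytes. Of 5 leukocyte miRNAs (miR-142-5p, miR-142-3p, miR-150-5p, miR-223-3p and miR-342-3p), 1 was called higher in liver after APAP and after CCl4, the neutrophil and monocyte miRNA miR-223-3p, at 1.44 (SE 0.26, adjusted p = 3.94e-05) and 1.83 (SE 0.22, adjusted p = 3.08e-05). Before adjustment 4 of the 5 were below 0.05 after CCl4 (55 of all 254 miRNAs tested) and 1 after APAP (23 of 249). After CCl4 all 5 were positive, with a median of 0.51 against -0.07 for all miRNAs tested. After APAP 4 were positive, with a median of 0.08 against 0.01. The 5 summed to between 3732 and 4975 CPM in CCl4 livers, against 2455 to 3441 in corn oil livers, and to between 2555 and 3325 CPM in APAP livers, against 2635 to 2831 in methylcellulose livers. In kidney 0 of the list were called by edgeR or DESeq2. The 1 below 0.05 before adjustment was miR-142-3p, at 0.61 (SE 0.17, edgeR adjusted p = 0.172). The sums were 1019 to 1585 CPM with cisplatin, against 1122 to 1270 with saline. None of the 5 was at 0 in any kidney, liver or plasma group. In plasma the leukocyte sum was far higher than in tissue, with a median of 34578 CPM over 18 libraries. It was 3353 to 19416 CPM in APAP plasma, against 38768 to 44481 in methylcellulose plasma, although by edgeR 0 of the 5 were called in any plasma comparison (0 at an unadjusted p under 0.05, and 0 by DESeq2). These sums are not TMM-scaled, and the APAP plasma values depended on the scaling. With TMM the median of the 5 after APAP was -0.81, against 0.21 for all miRNAs tested. The part of leukocytes in the miR-146b-5p differences was not tested.

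Red blood cell miRNAs (miR-451-5p and both arms of miR-144) were lower in cisplatin rats. In kidney edgeR called 2 of 3, against 1.74% of all miRNAs tested, and DESeq2 called 3. In plasma both called 3 of 3, where edgeR called 4.05% of all miRNAs tested. In kidney the edgeR call of miR-144-3p (-1.51, adjusted p = 0.0488) was lost without cisplatin kidney 1 or 3 or saline kidney 1 or 2 (adjusted p of 0.0699 to 0.210). With the replicate block miR-144-3p was at -1.57 (edgeR adjusted p = 0.000832). Their sum was 96.1 to 174 CPM in cisplatin kidneys, against 364 to 418 in saline kidneys. Their part in the kidney result was not tested.

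In plasma the hepatocyte miRNAs, which leave injured liver cells, were read beside the paralogs. After APAP 4 of 4 were called higher, in a comparison where 26.9% of all miRNAs tested were called. They summed to between 2916 and 3253 CPM in APAP plasma, against 0 to 89.5 CPM in methylcellulose plasma. After CCl4 1 of 3 was called higher by edgeR, against 0.433% of all miRNAs tested. It was miR-122-5p at 5.96 (SE 0.92, edgeR adjusted p = 0.0141), a call lost without corn oil plasma 2 (5.90, adjusted p = 0.0915). All 3 were positive, with a median of 4.85 against 0.04 for all miRNAs tested. All 3 had an unadjusted edgeR p under 0.05 (20 of all 231 miRNAs tested). DESeq2 called 2 of the 3 (3 of the 231). The sums were 459.6 to 2469 CPM in CCl4 plasma, against 14.1 to 83.1 CPM in corn oil plasma. After cisplatin miR-122-5p was the 1 tested, at -0.11 (edgeR adjusted p = 0.958).

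The miRNAs whose group means most resembled each paralog were ranked among 304 candidates by Pearson's r on log2 group means, as a description only, since the groups share libraries of unequal depth. Over the 6 kidney and liver groups miR-146b-5p was closest to miR-223-3p (r = 0.96), miR-17-1-3p (0.95), miR-155-5p (0.93), miR-147 (0.88) and miR-223-5p (0.85). miR-146a-5p was closest to a different set, miR-7a-5p (0.98), miR-338-5p (0.96), miR-142-5p (0.95), miR-150-5p (0.95) and miR-29a-3p (0.95). Over the 12 kidney, liver and plasma groups miR-146b-5p was closest to miR-223-5p (0.84), miR-18a-5p (0.83), miR-223-3p (0.81), miR-191a-3p (0.81) and miR-142-3p (0.80), and miR-146a-5p to miR-532-3p (0.87), miR-145-3p (0.83), miR-143-3p (0.81), miR-338-3p (0.80) and miR-350 (0.79). The paralogs themselves had an r of 0.59 over the 6 groups and 0.09 over the 12.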

How the data were processed

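The authors counted reads on mature miRNAs, and the deposited table holds raw counts. TruSeq small RNA libraries were read at 36 bases, adaptors were clipped, and reads were aligned with OSA to the rat genome (Rnor_5.0) and miRBase, with 2 mismatches allowed and reads at more than 10 genomic locations left out. All 832 rows entered totals and fits, although 79 repeat a miRNA listed elsewhere (48 with identical counts, 2.65% to 15.1% of a library's reads). Each comparison used edgeR 4.0.16 in R 4.3.3 (TMM, filterByExpr with a minimum count of 10 and total of 15, quasi-likelihood test, SE taken from the F statistic, adjusted p under 0.05 over all rows tested), and the script was tested on simulated data. DESeq2 1.42.0, other scalings and filters, equal depth, a replicate block and leaving out each library or the repeated rows were alternatives, those on repeated rows and header numbers added after the data were seen. Ratios used exact permutation tests (SciPy 1.17.1). P-values measure the spread between 3 rats a group, except those between sample types. There a side held 3 to 9 libraries, in part pooled over vehicles, and the sides may share rats. Same-numbered kidney libraries deviated together (correlations 0.26 to 0.38 in 3 of 3 pairs), although the labels name no shared batch. The numbers were used as pairs only in the replicate block and in the permutation within same-numbered pairs. The main kidney fit and the other permutations treated the kidney libraries as unpaired. The text names the members, listed miRNAs that passed the test, and the 5 most alike. Members and lists were chosen with earlier results of these data known.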

Additional observations from a re-analysis of the deposited data

How the results depend on the processing

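The miR-146b-5p calls in kidney, APAP liver and CCl4 liver kept their direction and passed 0.05 under every alternative run, with differences of 0.85 to 1.10, 1.19 to 1.55 and 2.52 to 2.85. With the replicate number as a block they were 0.95 (adjusted p = 0.000366), 1.38 (adjusted p = 0.0122) and 2.63 (adjusted p = 0.000992); the block changed no call of a member, and outside kidney the numbers did not pair the samples. The blocked fits called 3 miRNAs after APAP and 3 after CCl4 in liver (8 and 7 without it) and 5 in CCl4 plasma (1 without it). Over 39 results, 476 of 524 alternative values kept direction and side of the threshold. For the ratios of 3 against 3 libraries, which could not pass 0.05, only the direction could be compared. Read depth limits the urine values, and few reads limit the 3p values.

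The liver interaction of miR-146b-5p passed 0.05 with DESeq2 (1.35), total counts (1.43) and no filter (1.41), and ran from 1.15 to 1.55 with 1 library left out. With total counts miR-146a-5p no longer passed in plasma against liver (-0.36) or kidney (-0.037). All other changes were of sign, in values that passed no test, and their cause was not tested. miR-146b-5p in cisplatin plasma was 0.019 with DESeq2, 0.0027 with RLE size factors, 0.031 without a filter, 0.00091 at equal depth and 0.29 with the header number as a term; miR-146a-5p was -0.11 with total counts. The plasma interaction was 0.66 for miR-146b-5p and 0.55 for miR-146a-5p with total counts, 0.36 and 0.19 without a filter, and 0.22 and 0.0069 without the repeated rows. For miR-146b-5p it was also 0.084 with a mean count of at least 10 and 0.14 without APAP plasma 1 and methylcellulose plasma 3. The ratio of the miR-146b arms after APAP was 0.38 with 0.1 reads added.

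With 1 library left out, the values that changed sign ran as follows. In kidney miR-146a-5p ran from -0.39 to 0.12. In cisplatin plasma miR-146b-5p ran from -0.12 to 0.14, miR-146a-5p from -0.012 to 0.19 and their ratio from -0.25 to 0.065. miR-146b-5p ran from -0.52 to 0.079 in APAP plasma, from -0.54 to 0.21 in CCl4 plasma and from -0.22 to 0.080 in corn oil against methylcellulose liver. The plasma interaction ran from -0.46 to 0.66 for miR-146b-5p and from -0.52 to 0.21 for miR-146a-5p. The paralog ratio in APAP plasma ran from -0.42 to 0.35, and the ratio of the miR-146b arms in APAP liver from -0.69 to 0.054.

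Counts of called miRNAs also moved by more than 1.5 times: in APAP liver DESeq2 and equal depth each called 5; in CCl4 liver a mean count of at least 10 called 3, the header number as a term 2 and the table without repeated rows 4; in cisplatin plasma the header number as a term called 4 (9 without it); in APAP plasma equal depth called 23 (61 without it); in CCl4 plasma DESeq2 called 4 and no filter 13. Between plasma and liver DESeq2 called 267 and no filter 303 (176 with edgeR and the filter). Where edgeR called 0, no filter gave 3 calls in the liver interaction (DESeq2 and total counts 1 each), 9 in the plasma interaction (DESeq2 8) and 2 between the liver vehicles. Without 1 library, the kidney count was 3 (cisplatin kidney 1, saline kidney 1 or 2), the APAP liver count 5 (APAP liver 3), the CCl4 liver count 4 (corn oil liver 2), the cisplatin plasma count 33 (cisplatin plasma 1), and the CCl4 plasma count 14, 0 or 2 (corn oil plasma 1, 2 or 3) or 3 (CCl4 plasma 3). The plasma interaction had 8 calls without corn oil plasma 1, 6 without APAP plasma 2 or 3 and 1 without CCl4 plasma 1. The liver interaction had 2 without APAP liver 2 and 1 without APAP liver 1 or 3, CCl4 liver 3 or methylcellulose liver 1. The liver vehicles had 2 without methylcellulose liver 3 and 1 without methylcellulose liver 2 or corn oil liver 3, and the plasma vehicles 1 without corn oil plasma 1.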
